A study of Mus musculus with 12 samples.

Results

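The genes described here are the interleukins, their receptors and their binding inhibitors: every gene of the array whose symbol opens with Il and a digit. There were 78 such genes among the 19084 genes measured, and they split into 36 ligands, 36 receptor chains, 4 inhibitors (Il1rn, Il18bp, Il1f5 and Il22ra2) and 2 other genes (Il4i1, an amino acid oxidase, and Il1bos, a transcript antisense to Il1b). The 78 genes were read by 89 probes. Each gene with more than 1 probe was represented by its brightest. Il2, Il2rg, Il1rl1 and Il11ra1 are not analysed here.

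Liver RNA came from male C57BL/6 mice in 4 groups with 3 single-colour arrays each, and the labels state 6 mice per group. The ND mice ate a normal diet with 12.3% fat for 24 weeks. The HFD16 and HFD24 mice ate a diet with 36.1% fat, lard, 2% cholesterol, bile salt and egg yolk powder for 16 and 24 weeks. The PTFC mice ate that diet throughout and, after 6 weeks of it alone, received pure total flavonoids of Citrus (PTFC) by gavage for 18 weeks, each day at 50 mg per kg. The other groups received saline, and every mouse was fasted for 12 h before tissue was taken. Ages ran from 30 to 33 weeks except in HFD16 (23 to 25 weeks). Diet time and age therefore cannot be told apart in HFD24 against HFD16, nor diet and age in HFD16 against ND. The labels do not say whether an array holds 1 animal or a pool, and the p-values reflect only how far the arrays of a group differ, a spread that could be technical. The 12 arrays had median deposited intensities of 249 to 408. The smallest unit of the deposited values, the scaling step, was 1.23 to 1.46 on the ND arrays and 0.675 to 1.12 on all others. In bulk liver, fewer cells of a type and less RNA per cell cannot be told apart.

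Interleukins are secreted proteins that act on a receptor of several chains on a nearby cell. Receptors of the gamma chain, beta chain, IL-6 and IL-10 families signal through JAK kinases and STAT factors, whereas IL-1 and IL-17 receptors signal through adaptors to NF-kappaB. Several are held in check outside the cell by a soluble antagonist, a binding protein or a decoy receptor that lacks a signalling domain. In liver the ligands come mainly from macrophages, lymphocytes and damaged cells, and hepatocytes answer IL-6 with the acute phase proteins.

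Levels below are log2(intensity + 1) after quantile normalisation, and differences are on the same log2 scale with the standard error (SE) of limma's fit over all 12 arrays. A gene was called where its Benjamini-Hochberg adjusted p over all 19084 genes was under 0.05. A gene was called dim where its mean level was under 6.84, the 25th percentile of all genes. By that limit 27 of the 78 genes were dim: 16 ligands, among them Il4, Il6, Il9, Il17a, Il21 and Il22, 8 receptor chains, 2 inhibitors and Il1bos. There were 46 genes that stayed above the limit in each of the 4 groups. Of the 36 ligands 7 read above the median gene of the array (9.17), against 14 of the 36 receptor chains. A probe's brightness also depends on its sequence, so these counts describe the signal available and not an order of transcript amounts.

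**Figure D1:**
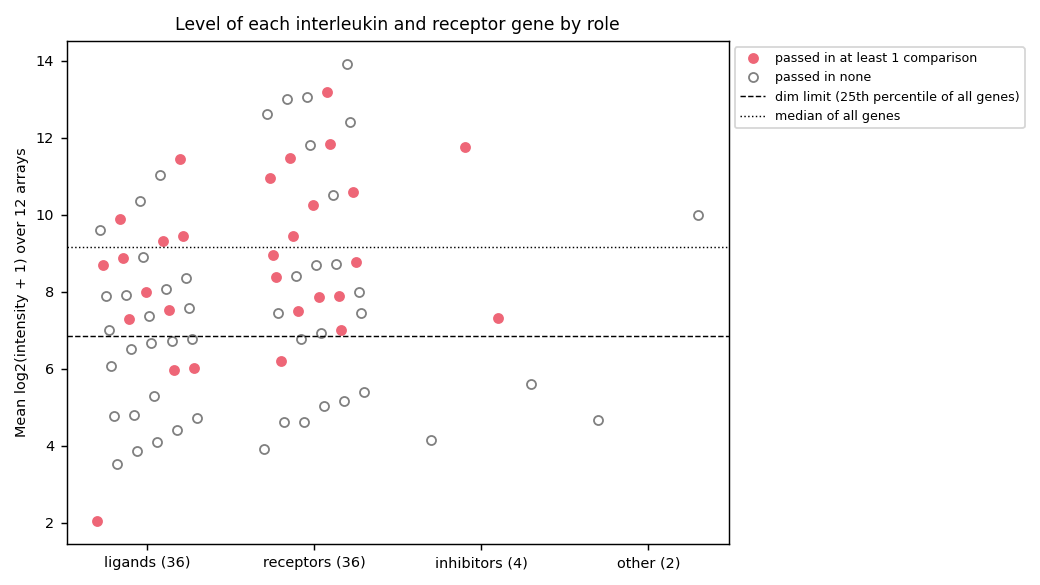
Mean log2(intensity + 1) over the 12 arrays for each of the 36 ligands, 36 receptor chains, 4 inhibitors and 2 other genes, with the dim limit (dashed, 6.84) and the median gene (dotted, 9.17). Filled points are the 29 genes that passed in at least 1 of the 5 comparisons; open points passed in none, and dim points are a larger share of the ligands (16) than of the receptors (8).

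After 24 weeks of high-fat diet 17 of the 78 genes were higher than on the normal diet and 6 were lower (limma, adjusted p under 0.05), which is 29.5% of them. Over all genes 18.3% passed in this comparison, 9.97% higher and 8.28% lower. Among genes that were not dim 21.4% passed, and 15 higher and 6 lower of the 51 members were called. By role, 5 ligands were higher and 2 lower, 10 receptor chains were higher and 4 lower, and 2 inhibitors were higher. The median difference of the 78 genes was 0.07 (all genes -0.06). The groups did not overlap for 35 of the 78 genes, against 33.6% of all genes. The largest increases were those of Il18bp, which captures IL-18, the ligand Il1f9, the IL-7 receptor chain Il7r and the IL-1 decoy Il1r2. Il10ra, Il13ra1, Il1a, Il27ra and Il2rb among the higher genes, and Il17c, Il22ra1 and Il23r among the lower, lost their call without 1 or more of the ND and HFD24 arrays (adjusted p of 0.0536 to 0.143, limma), and without the first HFD24 array 3 genes were called lower. Of all genes 10.4% were called without that array.

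The scaling step was higher on all ND arrays than on any other array. With that step as a covariate 3 of the 17 higher genes (Il1f9, Il1r2 and Il7r) and 0 of the 6 lower genes were called. Over all genes 2.0% were called with it, against 18.3% without. The lost calls of the members had adjusted p of 0.0536 to 0.452 (limma), and the differences of the 17 genes kept a median of 79.1% of their size. As every ND array had the higher step, the step and the normal diet cannot be fully told apart.

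**Figure D2:**
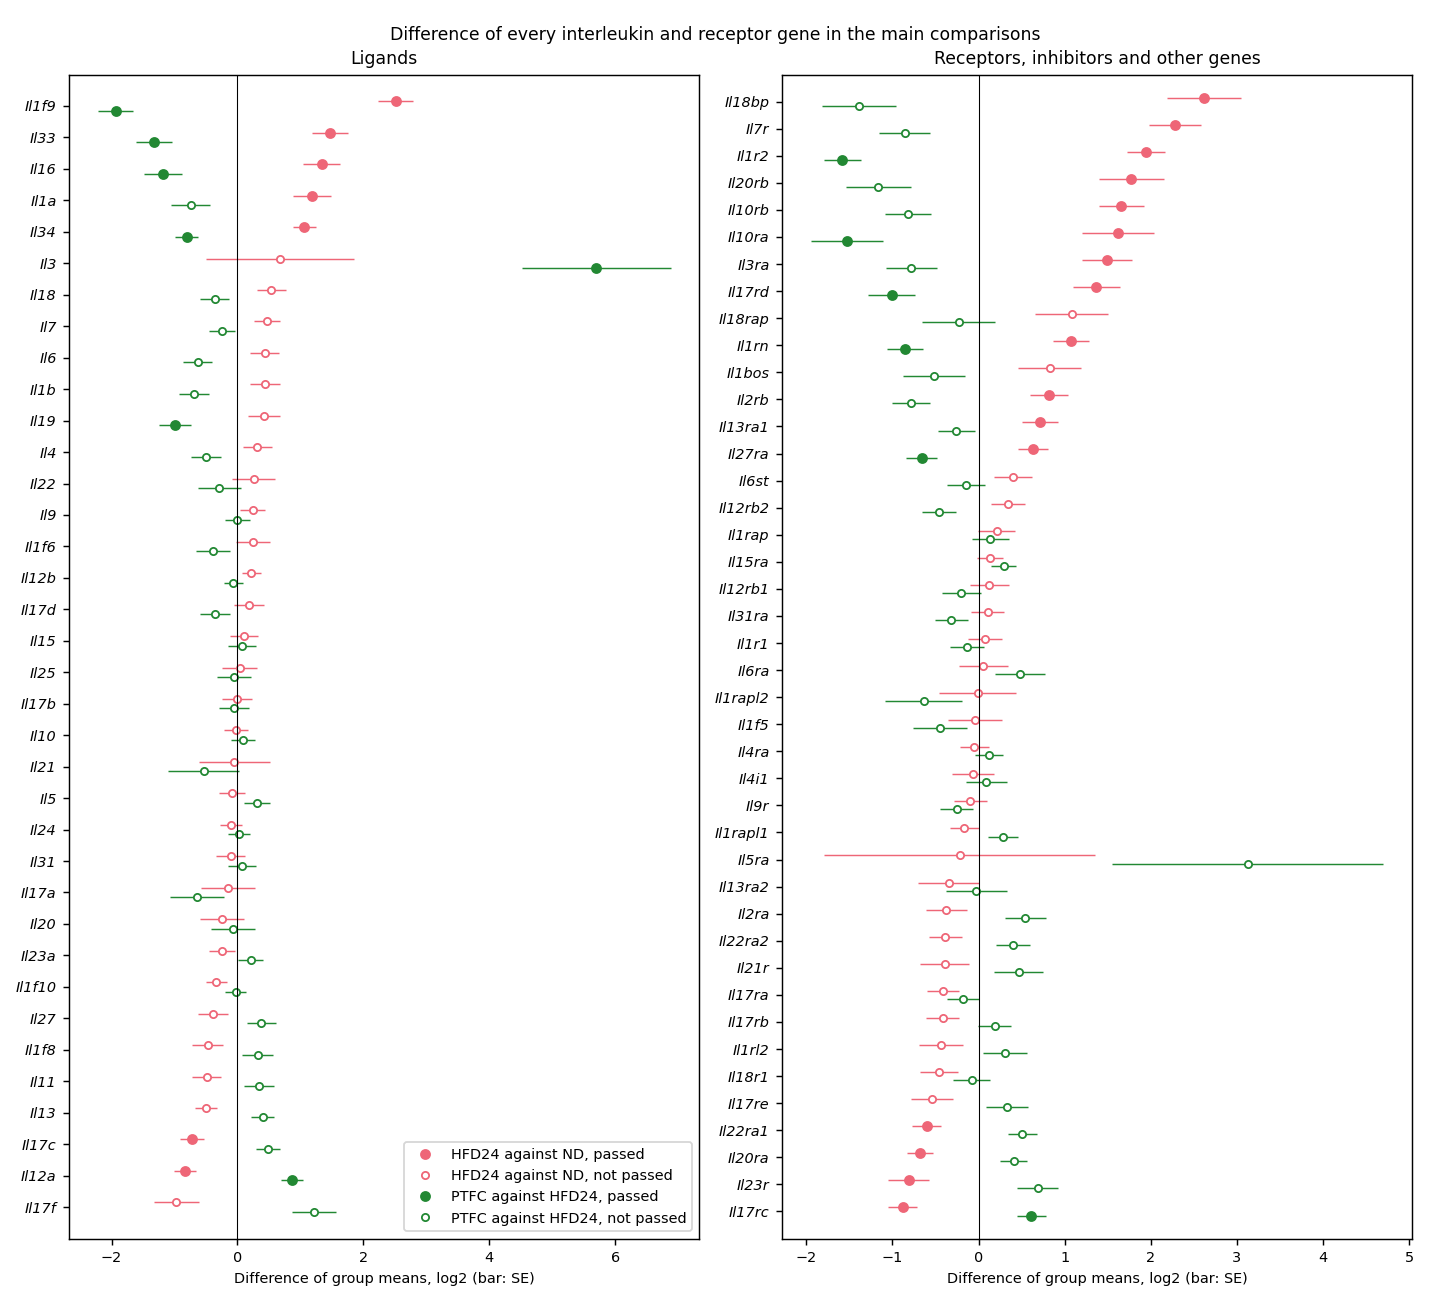
Difference of group means (log2, bars are SE) for every ligand on the left and every receptor, inhibitor and other gene on the right, for HFD24 against ND (red) and PTFC against HFD24 (green); filled points passed at an adjusted p of 0.05. The red points of Il1f9 (2.51) and Il18bp (2.62) lie farthest to the right, and the green point of Il3, whose place depends on the pseudocount, stands apart with a wide bar.

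The 250 bases before the transcription start, from RefSeq on GRCm38.p6, could be read for 61 of the 78 genes, and those of Il1f9, Il1r2 and Il7r, 3 of the 4 genes with the largest increases, and of the antagonist Il1rn are shown because they hold matches to motifs of factors that act downstream of cytokine receptors. The search used the STAT site TTCNNNGAA, the NF-kappaB site (GGGA and CC with any 4 bases between), the interferon element (GAAA, any 2 bases, GAAA) and the AP-1 site TGANTCA, each on both strands, and all matches counted, overlapping ones included. Capitals mark the match in each window, written 5′ to 3′ on the gene's strand. Il1f9 lies at chr2:24186226-24186475 (plus strand), Il1r2 at chr1:40085843-40086092 (plus), Il7r at chr15:9529877-9530126 (minus) and the first of the Il1rn starts at chr2:24336610-24336859 (plus).
Il1f9: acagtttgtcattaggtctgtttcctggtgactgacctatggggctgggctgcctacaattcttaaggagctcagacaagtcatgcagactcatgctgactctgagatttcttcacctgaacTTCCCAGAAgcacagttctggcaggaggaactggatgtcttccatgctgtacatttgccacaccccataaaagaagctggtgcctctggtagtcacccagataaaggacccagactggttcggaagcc
Il1r2: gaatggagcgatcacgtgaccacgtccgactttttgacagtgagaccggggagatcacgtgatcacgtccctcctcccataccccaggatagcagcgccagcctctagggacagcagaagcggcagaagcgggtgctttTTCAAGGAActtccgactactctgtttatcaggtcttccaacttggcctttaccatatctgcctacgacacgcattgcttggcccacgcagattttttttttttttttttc
Il7r: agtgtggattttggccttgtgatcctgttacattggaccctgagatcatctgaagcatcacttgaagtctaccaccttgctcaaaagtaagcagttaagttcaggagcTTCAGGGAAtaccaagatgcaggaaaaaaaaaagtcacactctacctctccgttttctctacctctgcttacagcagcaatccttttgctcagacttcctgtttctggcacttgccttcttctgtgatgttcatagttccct
Il1rn: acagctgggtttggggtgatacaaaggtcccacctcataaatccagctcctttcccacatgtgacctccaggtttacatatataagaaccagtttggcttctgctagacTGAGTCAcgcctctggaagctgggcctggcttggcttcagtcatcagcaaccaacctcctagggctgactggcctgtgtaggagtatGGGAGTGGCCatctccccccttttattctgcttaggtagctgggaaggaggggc
The Il1f9, Il1r2 and Il7r windows each hold 1 STAT match, at -128 to -120, -111 to -103 and -142 to -134 from the start, and the Il1rn window shown holds an AP-1 match at -141 to -135 and an NF-kappaB match at -54 to -45. The windows of the other Il1rn starts hold 0 matches to these motifs. So does the window of Il18bp, the gene with the largest increase. Among the 12 higher genes of HFD24 against ND with a window, 3 hold a STAT match, 4 an NF-kappaB match, 3 an AP-1 match and 0 an interferon element; among the 6 lower genes these counts are 0, 3, 2 and 0. Over the 61 genes they are 9, 16, 14 and 2. By gene, 8.13% of all genes with a window have a STAT match in one of their windows, 19.7% an NF-kappaB match, 7.82% an AP-1 match and 3.46% an interferon element, and by window 7.02%, 17.6%, 6.75% and 2.98%. A match is a description of letters and says nothing of whether a factor binds there.

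The largest increases among the ligands were those of Il1f9 and Il33, both of the IL-1 family. Il1f9 encodes the epithelial cytokine IL-36 gamma. It read 4.61, 4.99 and 5.27 on the ND arrays, 5.86, 6.02 and 6.54 in HFD16, 7.42, 6.98 and 8.02 in HFD24 and 5.89, 5.37 and 5.36 in PTFC. The HFD24 arrays lay above all others and were the only ones above the dim limit, and the HFD16 arrays lay between them and ND. The difference was 2.51 ± 0.28 (adjusted p = 0.000288) in HFD24 against ND, 1.18 ± 0.28 (adjusted p = 0.0142) in HFD16 against ND and -1.93 ± 0.28 (adjusted p = 0.00974) in PTFC against HFD24. Its mean in the other groups was under the dim limit, where sizes are poorly measured.

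Il33, an alarmin that is kept in the nucleus and released by damaged cells, read 7.86, 7.72 and 8.30 on the ND arrays, 8.93, 9.56 and 9.19 in HFD16, 9.63, 9.66 and 9.01 in HFD24 and 8.51, 8.36 and 7.45 in PTFC. Every array of both diet groups without the extract was above every ND and PTFC array. The increase was 1.47 ± 0.29 (adjusted p = 0.00416) at 24 weeks and 1.26 ± 0.29 (adjusted p = 0.0112) at 16 weeks, and PTFC differed from HFD24 by -1.32 ± 0.29 (adjusted p = 0.025). Il1a, an alarmin that acts on the same receptor as IL-1 beta, read 9.15, 8.86 and 9.61 on the ND arrays, 9.82, 11.11 and 9.99 in HFD16, 10.64, 10.11 and 10.43 in HFD24 and 9.56, 9.89 and 9.49 in PTFC. It was called higher at 24 weeks (1.19 ± 0.30, adjusted p = 0.0172) and at 16 weeks (1.11 ± 0.30, adjusted p = 0.0253). The extract arrays lay below the HFD24 arrays without overlap, but the difference did not pass (-0.75 ± 0.30, adjusted p = 0.15).

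Il1b, the secreted IL-1 that caspase-1 matures, read 11.04, 11.21 and 11.09 on the ND arrays, 10.26, 10.93 and 10.62 in HFD16, 11.36, 11.87 and 11.40 in HFD24 and 10.74, 10.49 and 11.33 in PTFC. Its HFD24 arrays were above all others, the third PTFC array lying just below them, yet neither HFD24 against ND (0.43 ± 0.24, adjusted p = 0.224, 95% interval -0.08 to 0.94) nor PTFC against HFD24 (-0.69 ± 0.24, adjusted p = 0.0944) passed. Il18, the other substrate of caspase-1 in this family, read 11.32, 11.17 and 10.71 on the ND arrays, 11.64, 11.74 and 12.18 in HFD16, 12.00, 11.56 and 11.25 in HFD24 and 11.30, 11.01 and 11.41 in PTFC. It was called higher at 16 weeks (0.79 ± 0.23, adjusted p = 0.0331), while the difference at 24 weeks was 0.54 ± 0.23 (adjusted p = 0.126). The HFD24 and ND arrays of Il18 overlapped.

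2 further ligands rose with the diet. Il16, a chemoattractant for CD4+ cells, read 8.30, 8.40 and 9.22 on the ND arrays, 9.34, 10.50 and 9.75 in HFD16, 10.06, 10.21 and 9.65 in HFD24 and 8.89, 8.92 and 8.56 in PTFC. The HFD24 arrays were above all ND and PTFC arrays, and the third ND array was the highest of those 6. The difference was 1.34 ± 0.30 (adjusted p = 0.00897) in HFD24 against ND, 1.23 ± 0.30 (adjusted p = 0.0158) in HFD16 against ND and -1.19 ± 0.30 (adjusted p = 0.0396) in PTFC against HFD24. Il34, a ligand of the CSF1 receptor that sustains macrophages, read 6.90, 6.93 and 6.87 on the ND arrays, 7.05, 7.50 and 7.02 in HFD16, 8.22, 8.04 and 7.63 in HFD24 and 7.22, 7.10 and 7.14 in PTFC. All 3 HFD24 arrays were above the other 9. Il34 differed by 1.06 ± 0.18 (adjusted p = 0.00219) in HFD24 against ND and by -0.81 ± 0.18 (adjusted p = 0.0287) in PTFC against HFD24, and did not pass at 16 weeks (0.29 ± 0.18, adjusted p = 0.282).

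The ligands that fell with the diet belonged to other families. Il12a, the p35 subunit of IL-12, read 10.07, 9.74 and 9.54 on the ND arrays, 9.35, 9.22 and 9.27 in HFD16, 8.81, 9.09 and 8.96 in HFD24 and 9.66, 9.75 and 10.05 in PTFC. Both diet groups without the extract lay below ND and PTFC. Il12a fell in HFD24 against ND (-0.83 ± 0.17, adjusted p = 0.00602) and was higher in PTFC against HFD24 (0.87 ± 0.17, adjusted p = 0.022). Il17c, an epithelial member of the IL-17 family, read 7.74, 7.64 and 8.29 on the ND arrays, 7.13, 7.39 and 7.48 in HFD16, 7.03, 7.14 and 7.33 in HFD24 and 7.48, 7.62 and 7.86 in PTFC. It fell in HFD24 against ND (-0.72 ± 0.19, adjusted p = 0.0214), with no overlap between those groups, and PTFC against HFD24 did not pass (0.49 ± 0.19, adjusted p = 0.141). Its other, weaker probe gave -0.52 in HFD24 against ND and did not pass (adjusted p = 0.105, limma).

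Il27 and Il7 passed at 16 weeks only. Il27, the p28 subunit of IL-27, read 9.31, 9.17 and 9.03 on the ND arrays, 8.35, 8.60 and 8.24 in HFD16, 8.20, 9.10 and 9.05 in HFD24 and 9.49, 8.90 and 9.09 in PTFC, and was lower in HFD16 against ND (-0.77 ± 0.24, adjusted p = 0.0383). The HFD24 arrays overlapped with ND (-0.39 ± 0.24, adjusted p = 0.275). Il7, a survival factor for lymphocytes, read 7.82, 7.66 and 7.46 on the ND arrays, 7.85, 8.50 and 8.51 in HFD16, 8.47, 7.97 and 7.91 in HFD24 and 7.93, 7.84 and 7.85 in PTFC, and was higher in HFD16 against ND (0.64 ± 0.21, adjusted p = 0.0488). This call lay close to the threshold and held in 4 of 20 alternatives, in which the adjusted p ran from 0.0116 to 0.437. At 24 weeks its difference was 0.47 ± 0.21 (adjusted p = 0.131). Passing at 1 time and not at the other does not show that the times differ: Il7 differed by -0.17 and Il27 by 0.38 between HFD24 and HFD16, and neither passed.

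Il10, the main anti-inflammatory interleukin, read 8.42, 8.06 and 7.79 on the ND arrays, 8.13, 8.04 and 7.74 in HFD16, 8.00, 8.11 and 8.09 in HFD24 and 8.39, 7.86 and 8.21 in PTFC, and all groups overlapped (HFD24 against ND -0.02 ± 0.19, adjusted p = 0.948, interval -0.44 to 0.39). Il6, which drives the acute phase response, was dim in every group and read 5.28, 4.78 and 5.58 on the ND arrays, 5.12, 5.42 and 5.25 in HFD16, 5.63, 5.94 and 5.37 in HFD24 and 4.98, 5.12 and 4.95 in PTFC. Neither HFD24 against ND (0.43 ± 0.23, adjusted p = 0.204) nor PTFC against HFD24 (-0.63 ± 0.23, adjusted p = 0.109) passed, and a difference in so dim a signal is poorly measured. Il19, a dim ligand of the IL-20 receptor, read 5.88, 5.67 and 6.27 on the ND arrays, 6.19, 5.88 and 6.31 in HFD16, 5.88, 6.78 and 6.44 in HFD24 and 5.12, 5.73 and 5.28 in PTFC. It was lower in PTFC against HFD24 (-0.99 ± 0.26, adjusted p = 0.0421) with no overlap, and HFD24 against ND did not pass (0.42 ± 0.26, adjusted p = 0.272).

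Both called inhibitors of the IL-1 family were higher after 24 weeks. Il18bp, the soluble protein that captures IL-18, read 9.89, 10.40 and 10.71 on the ND arrays, 11.18, 12.86 and 12.53 in HFD16, 13.38, 13.29 and 12.18 in HFD24 and 12.11, 11.54 and 11.03 in PTFC. All HFD24 and HFD16 arrays were above all ND arrays. The difference was 2.62 ± 0.43 (adjusted p = 0.00189) at 24 weeks and 1.86 ± 0.43 (adjusted p = 0.0128) at 16 weeks. PTFC arrays lay below HFD24 arrays, but -1.39 ± 0.43 (adjusted p = 0.0737) did not pass. Il1rn, the receptor antagonist that blocks IL-1, read 7.13, 7.07 and 6.78 on the ND arrays, 6.48, 7.34 and 7.12 in HFD16, 8.16, 8.11 and 7.92 in HFD24 and 7.37, 7.12 and 7.13 in PTFC. HFD24 alone stood above the rest. Its difference was 1.07 ± 0.21 (adjusted p = 0.00411) in HFD24 against ND and -0.86 ± 0.21 (adjusted p = 0.035) in PTFC against HFD24, with -0.01 ± 0.21 (adjusted p = 0.976) at 16 weeks. The genes whose levels followed Il1rn most closely over the 12 arrays were Trim36 (Pearson r 0.901), Il34 (0.901) and Dppa3 (0.899), and those nearest to Il1b were Agpat4 (0.887), Thap3 (0.879) and Acod1 (0.87). These are descriptions that include the differences between groups.

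**Figure D3:**
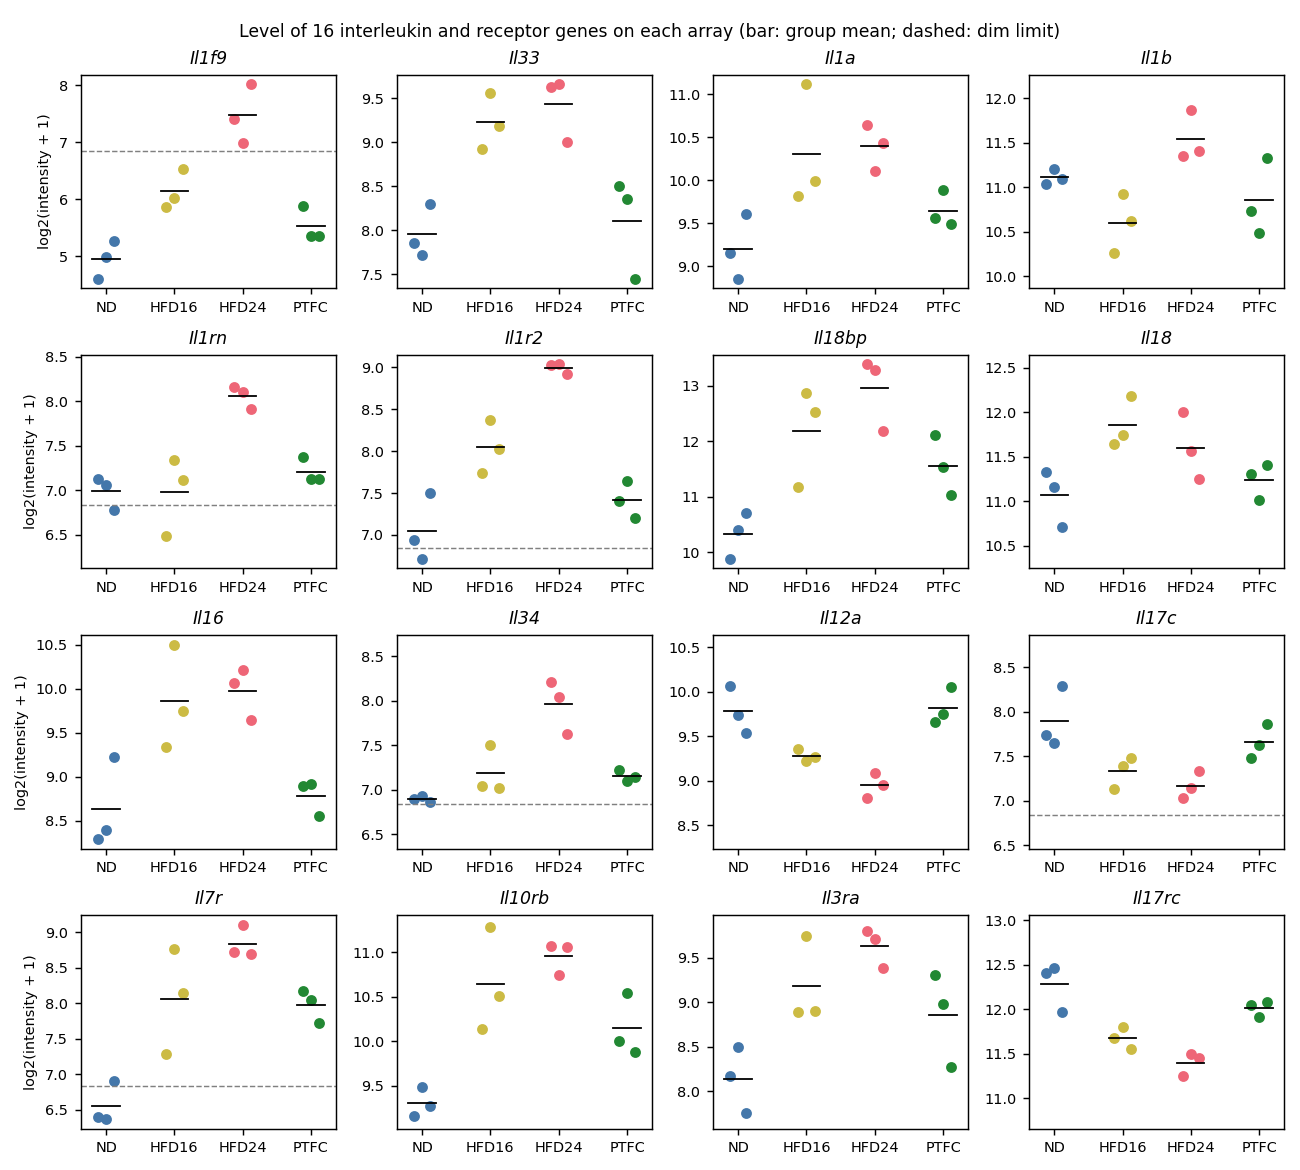
Log2(intensity + 1) on each array for 16 of the genes, 3 arrays per group, with the group mean as a bar and the dim limit as a dashed line where it falls in range. Il1r2 on the 3 HFD24 arrays sits at 8.92 to 9.04 above the other 9 arrays, and Il12a and Il17rc run the other way, with HFD24 lowest.

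Among the receptors the decoy chain Il1r2, which binds IL-1 without signalling, had the smallest p. It read 6.94, 6.72 and 7.50 on the ND arrays, 7.74, 8.38 and 8.03 in HFD16, 9.03, 9.04 and 8.92 in HFD24 and 7.40, 7.64 and 7.20 in PTFC. The HFD24 arrays lay close together and exceeded every other array, and HFD16 lay above ND. Il1r2 differed by 1.94 ± 0.22 (adjusted p = 0.000288) in HFD24 against ND, by 1.00 ± 0.22 (adjusted p = 0.0095) in HFD16 against ND and by -1.58 ± 0.22 (adjusted p = 0.00788) in PTFC against HFD24. The signalling receptor for the same ligands, Il1r1, read 12.56, 12.71 and 12.58 on the ND arrays, 12.48, 12.84 and 12.53 in HFD16, 12.91, 12.48 and 12.67 in HFD24 and 12.35, 12.98 and 12.34 in PTFC, with all groups overlapping and 0.07 ± 0.20 (adjusted p = 0.825) in HFD24 against ND (interval -0.35 to 0.50).

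Il7r, the alpha chain that lymphocytes need for IL-7, read 6.40, 6.37 and 6.90 on the ND arrays, 7.28, 8.76 and 8.14 in HFD16, 8.72, 9.10 and 8.69 in HFD24 and 8.17, 8.04 and 7.72 in PTFC. It rose by 2.28 ± 0.30 (adjusted p = 0.000703) at 24 weeks and by 1.50 ± 0.30 (adjusted p = 0.00667) at 16 weeks. It was also higher in PTFC than in ND (1.42 ± 0.30, adjusted p = 0.0302), and PTFC against HFD24 did not pass (-0.86 ± 0.30, adjusted p = 0.102). Of the other chains used with the common gamma chain, Il2rb, shared by the IL-2 and IL-15 receptors, read 8.34, 8.35 and 8.54 on the ND arrays, 8.53, 9.58 and 9.09 in HFD16, 9.40, 9.19 and 9.08 in HFD24 and 8.28, 8.48 and 8.56 in PTFC, and was higher in HFD24 (0.82 ± 0.22, adjusted p = 0.023). Its PTFC arrays overlapped with ND and not with HFD24 (-0.78 ± 0.22, adjusted p = 0.0548). Il13ra1, which pairs with Il4ra to bind IL-13, read 10.27, 10.12 and 9.96 on the ND arrays, 11.07, 10.51 and 10.98 in HFD16, 11.19, 10.88 and 10.42 in HFD24 and 10.69, 10.60 and 10.43 in PTFC, and was higher at 24 weeks (0.71 ± 0.21, adjusted p = 0.034) and at 16 weeks (0.74 ± 0.21, adjusted p = 0.031). Il4ra itself read 10.54, 10.52 and 10.37 on the ND arrays, 10.35, 10.81 and 10.51 in HFD16, 10.36, 10.44 and 10.49 in HFD24 and 10.35, 10.69 and 10.63 in PTFC, and all groups overlapped (-0.05 ± 0.16, adjusted p = 0.87 in HFD24 against ND, interval -0.40 to 0.31).

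Members of the IL-10 receptor family moved in both directions. Il10ra, the ligand-binding chain for IL-10, read 8.13, 9.07 and 8.92 on the ND arrays, 8.93, 10.96 and 10.10 in HFD16, 10.62, 10.43 and 9.92 in HFD24 and 8.66, 9.24 and 8.49 in PTFC. It was higher in HFD24 (1.62 ± 0.42, adjusted p = 0.018) and lower in PTFC against HFD24 (-1.53 ± 0.42, adjusted p = 0.0491), though its HFD16 arrays spread widely and overlapped with ND (1.29 ± 0.42, adjusted p = 0.0483). Il10rb, the shared second chain of the IL-10 and IL-22 receptors, read 9.16, 9.48 and 9.27 on the ND arrays, 10.14, 11.28 and 10.51 in HFD16, 11.07, 10.75 and 11.06 in HFD24 and 10.00, 10.55 and 9.88 in PTFC, and rose by 1.66 ± 0.26 (adjusted p = 0.00161). PTFC lay below HFD24 and above ND, and neither difference passed (-0.82 ± 0.26, adjusted p = 0.081 against HFD24). Il20rb, a chain for IL-19, IL-20 and IL-24, read 11.79, 12.10 and 12.87 on the ND arrays, 12.56, 14.26 and 14.16 in HFD16, 13.84, 14.01 and 14.22 in HFD24 and 13.05, 12.77 and 12.76 in PTFC, and rose by 1.77 ± 0.38 (adjusted p = 0.00691) at 24 weeks and by 1.41 ± 0.38 (adjusted p = 0.0236) at 16 weeks, where 1 HFD16 array overlapped with ND. Its partner Il20ra read 8.89, 8.66 and 8.92 on the ND arrays, 8.12, 7.84 and 7.90 in HFD16, 7.93, 8.27 and 8.24 in HFD24 and 8.52, 8.61 and 8.53 in PTFC, and was lower at 24 weeks (-0.68 ± 0.15, adjusted p = 0.00919) and at 16 weeks (-0.87 ± 0.15, adjusted p = 0.00375). Il22ra1, the IL-22 chain of hepatocytes and epithelia, read 7.43, 7.52 and 7.04 on the ND arrays, 6.90, 6.54 and 6.83 in HFD16, 6.69, 6.75 and 6.74 in HFD24 and 7.15, 7.23 and 7.32 in PTFC, and was also lower at both times (-0.60 ± 0.17, adjusted p = 0.0246 at 24 weeks). It lay near the dim limit.

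In the IL-6 and IL-12 receptor family, Il27ra, the IL-27 receptor of lymphocytes, read 7.37, 7.13 and 7.33 on the ND arrays, 7.28, 7.98 and 7.58 in HFD16, 7.80, 7.99 and 7.93 in HFD24 and 7.29, 7.21 and 7.24 in PTFC. It was higher in HFD24 (0.63 ± 0.18, adjusted p = 0.0254) and lower in PTFC against HFD24 (-0.66 ± 0.18, adjusted p = 0.0443). Il23r, the specific chain for IL-23, read 12.07, 12.11 and 11.54 on the ND arrays, 11.21, 11.26 and 10.84 in HFD16, 10.61, 11.33 and 11.35 in HFD24 and 11.99, 11.50 and 11.86 in PTFC, and was lower in HFD24 (-0.81 ± 0.24, adjusted p = 0.0312) and in HFD16 (-0.80 ± 0.24, adjusted p = 0.034). Il6st, the gp130 chain that transmits IL-6 signals, read 12.71, 12.91 and 12.64 on the ND arrays, 12.80, 13.63 and 12.97 in HFD16, 13.33, 12.96 and 13.19 in HFD24 and 12.75, 13.32 and 12.97 in PTFC, and did not pass in either comparison (0.40 ± 0.22, adjusted p = 0.222 in HFD24 against ND, interval -0.07 to 0.88). Il6ra, the IL-6 binding chain, read 12.72, 12.30 and 13.66 on the ND arrays, 12.64, 13.01 and 13.20 in HFD16, 12.68, 13.23 and 12.93 in HFD24 and 13.52, 13.52 and 13.25 in PTFC, and its brightest probe gave 0.06 ± 0.29 (adjusted p = 0.918).

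The IL-17 receptors also split. Il17rc, the partner of Il17ra in the IL-17A receptor, read 12.41, 12.47 and 11.97 on the ND arrays, 11.68, 11.80 and 11.56 in HFD16, 11.25, 11.50 and 11.46 in HFD24 and 12.05, 11.92 and 12.08 in PTFC, and fell in HFD24 (-0.88 ± 0.17, adjusted p = 0.00376) and in HFD16 (-0.60 ± 0.17, adjusted p = 0.0266). It was higher in PTFC than in HFD24 (0.61 ± 0.17, adjusted p = 0.0486), a call that held in 8 of 20 alternatives (adjusted p of 0.0182 to 0.228) and was lost with median centring, where the difference was 0.31. Il17ra, shared by the family, read 12.80, 12.79 and 12.64 on the ND arrays, 12.16, 12.61 and 12.50 in HFD16, 12.35, 12.05 and 12.59 in HFD24 and 12.16, 12.36 and 11.91 in PTFC, and did not pass (-0.41 ± 0.19, adjusted p = 0.138). Il17rd, a chain of the family that also restrains growth factor signals, was dim and read 5.22, 5.03 and 6.27 on the ND arrays, 6.59, 6.43 and 6.76 in HFD16, 7.10, 6.91 and 6.61 in HFD24 and 5.85, 5.97 and 5.78 in PTFC. It rose in HFD24 (1.37 ± 0.27, adjusted p = 0.00477) and in HFD16 (1.09 ± 0.27, adjusted p = 0.0174) and was lower in PTFC against HFD24 (-1.01 ± 0.27, adjusted p = 0.047). Il17rb, the IL-25 receptor, read 11.30, 11.48 and 11.02 on the ND arrays, 10.81, 10.71 and 10.54 in HFD16, 10.84, 11.16 and 10.55 in HFD24 and 10.88, 11.20 and 11.04 in PTFC, and was lower in HFD16 (-0.58 ± 0.19, adjusted p = 0.0491), with -0.42 ± 0.19 (adjusted p = 0.148) at 24 weeks. Il3ra, the IL-3 binding chain that pairs with the common beta chain, read 8.17, 8.49 and 7.76 on the ND arrays, 8.89, 9.74 and 8.90 in HFD16, 9.81, 9.71 and 9.39 in HFD24 and 9.31, 8.99 and 8.27 in PTFC, and rose by 1.49 ± 0.30 (adjusted p = 0.00457) at 24 weeks and by 1.04 ± 0.30 (adjusted p = 0.0289) at 16 weeks.

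With the extract, 10 of the 78 genes were lower and 3 were higher than in HFD24 (16.7%, against 6.0% of all genes, 2.96% higher and 3.04% lower, and 6.92% of genes that were not dim). The lower genes were 5 ligands (Il1f9, Il33, Il16, Il34 and Il19), 4 receptor chains (Il1r2, Il10ra, Il17rd and Il27ra) and 1 inhibitor (Il1rn), and the higher genes were Il12a, Il17rc and the dim Il3, which read at or near 0 in the other groups. The median difference of the 78 genes was -0.11 (all genes 0.01), and the groups did not overlap for 35, against 31.1% of all genes. This comparison and HFD24 against ND share the 3 HFD24 arrays, and the values of each are given side by side above. Without the third PTFC array 0 of the 13 calls remained, and 0.0576% of all genes were called, against 6.0% with it. The lost lower calls of the members had adjusted p of 0.0586 to 0.205 (limma), although these differences kept a median of 95.2% of their size. The count of lower genes was 6 without the first ND array, 4 without the third HFD16 array, 2 without the first or the second HFD24 array, 4 without the third HFD24 array, and 3 without the first or the second PTFC array. The count of higher genes was 0 without the first HFD24 array, 1 without the second PTFC array and 5 without the third ND array. Of the 20 alternatives the calls of Il10ra, Il17rc and Il27ra held in 8, that of Il19 held in 8 of 19 and that of Il17rd in 9 of 19. Without normalisation between arrays, which shifts the median of all genes by 0.24 in this comparison, 7 genes were higher and 3 lower. Median centring shifts it by -0.13 and gave 4 higher and 13 lower. Over all genes 1502 were higher and 158 lower without normalisation, and 602 and 1013 with median centring.

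Against ND, PTFC differed for 2 genes, Il7r and Il3, of 78 (2.56%, against 2.33% of all genes, 1.04% higher and 1.29% lower). Groups did not overlap for 16 of the 78, against 22.1% of all genes. In this comparison the count was 0 without the first ND, the second PTFC or the third PTFC array and 1 without the second ND or the first PTFC array. The share of all genes called was then 0.341%, 0.823%, 0.304%, 1.35% and 1.12%, in that order. Il3, a growth factor of mast cells and basophils, was dim. Its deposited intensities were -7.32, 1.23 and -3.71 in ND, 0, 1.35 and -3.14 in HFD16, 0, 5.62 and -1.71 in HFD24, and 7.64, 337 and 462 in PTFC. 2 of the 3 PTFC arrays thus carried a signal where the other arrays read at or near 0, and the calls against HFD24 (adjusted p = 0.0231, limma) and ND (adjusted p = 0.0166, limma) rest on them. Because the other groups were at or near 0, the fitted size follows the pseudocount, being 5.70 on the log2 scale against HFD24 with 1 and 2.38 with 32, and neither is a measured difference. Il5ra, the IL-5 binding chain of eosinophils, was singled out after its values were seen. Its intensity was 59.9 to 148 on 11 arrays and 46500 on the third PTFC array. That 1 array was 8.44 above the next on the log2 scale, and 36 of 19084 genes had 1 array at least 4 above the other 11. The Il5ra difference (3.13 ± 1.57, adjusted p = 0.244 in PTFC against HFD24) did not pass. Mast cell and basophil genes are given with the other cell types below.

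**Figure D4:**
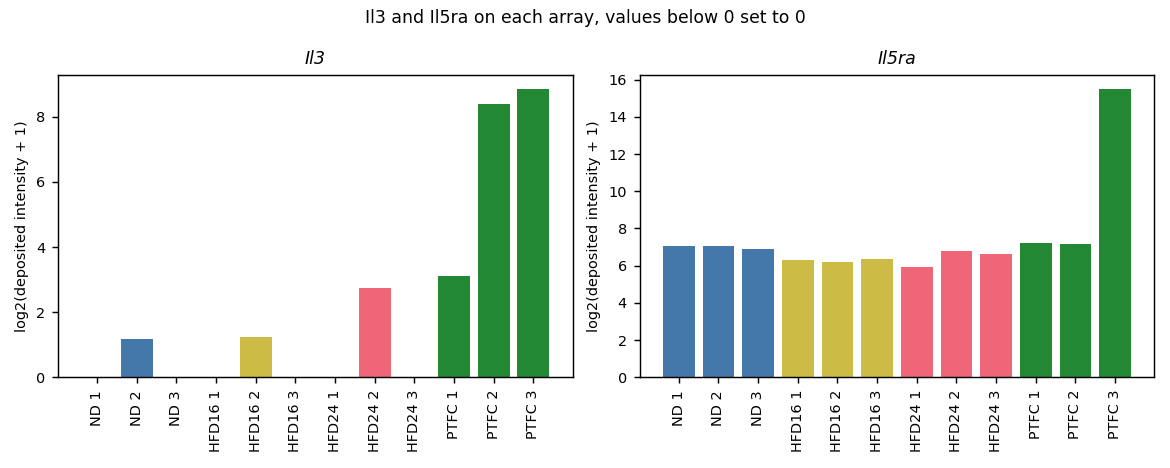
Log2(deposited intensity + 1) of Il3 and Il5ra on each of the 12 arrays, values below 0 set to 0, coloured by group. Il3 is raised on the second and on the third PTFC array (337 and 462), and Il5ra on the third PTFC array alone (46500).

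At 16 weeks 15 of the 78 genes were higher and 6 lower than ND (26.9%, against 18.1% of all genes, 10.0% higher and 8.11% lower, and 21.4% of genes that were not dim). The groups did not overlap for 39, against 35.8% of all genes. By role, 6 ligands, 8 receptor chains and 1 inhibitor were higher, and 1 ligand and 5 receptor chains were lower. The comparison shares its ND arrays with HFD24 against ND. Its HFD16 mice were younger than its ND mice, so that diet and age cannot be told apart in it. Il18, Il7, Il27 and Il17rb passed here and not at 24 weeks, and Il1rn, Il34, Il2rb, Il27ra, Il12a and Il17c passed at 24 weeks and not here. Without normalisation between arrays, which shifts the median of all genes by -0.23 here and in HFD24 against ND, the split was 9 higher and 10 lower. Over all genes 1200 were then higher and 2284 lower at 16 weeks. With the scaling step as a covariate 0 of the 21 calls held at 16 weeks, and 0.529% of all genes were called. The count of higher genes was 4 without the first ND array and 7 without the second ND, the second HFD16 or the third HFD16 array. The count of lower genes was 1 without the first ND, the second ND or the third HFD16 array, 3 without the first HFD16 array, 2 without the second HFD16 array and 11 without the third ND array. The call of Il7 held in 4 of 20 alternatives, that of Il10ra in 6 and that of Il17rb in 9. Between HFD24 and HFD16 themselves none of the 78 genes passed in limma (0.0367% of all genes did, 0.0157% higher and 0.021% lower), while 8 had an unadjusted p under 0.05. The groups did not overlap for 10, against 16.4% of all genes. The lowest adjusted p was that of Il1rn (1.08 ± 0.21, adjusted p = 0.131), ahead of Il1f9 (1.33 ± 0.28, adjusted p = 0.183). For each of these the HFD24 arrays lay above the HFD16 arrays without overlap.

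The 49 genes called in no comparison included 23 dim ones, among them the T cell cytokines Il4, Il17a, Il21 and Il22. Another 23 were above the dim limit in every group: Il1b, Il10, Il11, Il12b, Il13, Il15, Il17b, Il17f, Il20 and Il23a among the ligands, Il1r1, Il1rap, Il1rl2, Il2ra, Il4ra, Il6ra, Il6st, Il12rb1, Il15ra, Il17ra, Il17re and Il18r1 among the receptor chains, and Il4i1. Among all 49, differences ran from -0.97 to 1.08 in HFD24 against ND and from -0.69 to 3.13 in PTFC against HFD24, the last being Il5ra. Il17f came nearest of these in the extract comparison (1.22 ± 0.35, adjusted p = 0.0575).

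9 of the genes were read by several probes, and for some the probes differed. The brightest probe of Il18r1, a chain of the IL-18 receptor, gave -0.46 in HFD24 against ND, while its other probe, of nearly the same mean level (7.38 against 7.46), gave 2.24 (adjusted p = 0.0125, limma). On that other probe ND arrays read 5.82, 5.91 and 6.74 and HFD24 arrays 8.68, 8.77 and 7.73, without overlap. Il34 rested on its brightest probe, and its other probe, at a mean of 3.47, gave 0.25, and in PTFC against HFD24 the probes gave -0.81 and 0.67. With the mean of both probes Il34 was not called, at 0.66 in HFD24 against ND and -0.07 in PTFC against HFD24. The weaker probe of Il6ra gave -0.55 (adjusted p = 0.0297, limma) against 0.06 for the brightest. For Il17re the probes gave -0.54 and 0.27 in HFD24 against ND, neither passing, and for the dim Il9r they gave -0.44 and 0.90 in HFD16 against ND, the second with an adjusted p of 0.0381 (limma). For Il17ra they gave -0.18 and 0.23 in PTFC against HFD24, neither passing. Among the differences given here, the direction of Il18r1, Il17re and Il6ra in HFD24 against ND therefore depends on the probe chosen. The same holds for Il9r in HFD16 against ND and for Il34 and Il17ra in PTFC against HFD24. It also holds for Il34 in HFD16 against ND (0.29 and -1.68, neither passing). Whether Il18r1, Il6ra, Il9r, Il34 and Il17c passed depends on it too. With the mean of its probes Il7 was not called in HFD16 against ND. In the fit over all probes its brightest gave an adjusted p of 0.0506 there. Its other probes gave 0.0675 and 0.134 (limma), with differences of 0.68 and 0.49 in the same direction.

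**Figure D5:**
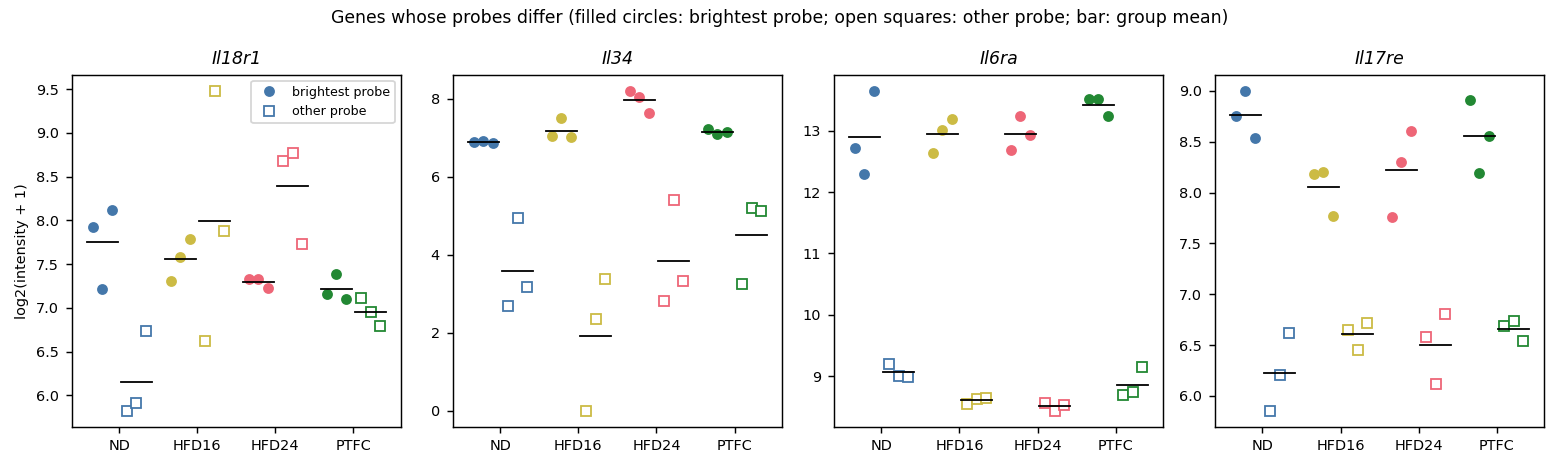
Log2(intensity + 1) on each array for the brightest probe (filled circles) and the other probe (open squares) of Il18r1, Il34, Il6ra and Il17re, with the group mean as a bar. The other probe of Il18r1 rises from 5.82 to 6.74 in ND to 7.73 to 8.77 in HFD24, while its brightest probe does not.

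The chains that work with these genes under other names were taken from a list. Their values are log2 differences ± SE. The share of all genes called, against which each count of called genes in these lists and in the cell type lists stands, was 18.3% in HFD24 against ND (9.97% higher, 8.28% lower) and 6.0% in PTFC against HFD24 (2.96% higher, 3.04% lower). In HFD24 against ND 4 of 9 partner chains were higher and 0 lower (median 0.86, all genes -0.06). Ebi3, which pairs with the p28 subunit of IL-27 and with p35, rose by 1.75 ± 0.25, Csf2rb2, the IL-3 specific beta chain, by 2.91 ± 0.59 and Csf1r, the receptor of IL-34, by 2.37 ± 0.48. Csf1r is also counted among the monocyte and macrophage genes below. With the extract Ebi3 was lower than in HFD24 (-1.05 ± 0.25), 1 of the 9. Of 21 genes of the JAK and STAT route, which are the kinases, the STAT factors, their SOCS and PIAS inhibitors and the phosphatases Ptpn6 and Ptpn11, 4 were higher and 0 lower (median 0.16), a share near the 18.3% of all genes called. They were Socs5 (0.77 ± 0.20), Jak2 (0.62 ± 0.16), Jak3 (0.96 ± 0.25) and the phosphatase Ptpn6 (0.81 ± 0.23), the last named after its values were seen. Jak2 was lower with the extract (-0.62 ± 0.16).

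Of 19 genes of the MyD88, IRAK and NF-kappaB route 3 were higher and 4 lower (median -0.08, all genes 9.97% higher and 8.28% lower), and the members that rose include restraints on the route as well as Nfkb2. Irak3, an inactive kinase that blocks IRAK signals, rose by 2.38 ± 0.30, Nfkb2, the p100 precursor, by 1.26 ± 0.19 and Tnfaip3, the A20 inhibitor of NF-kappaB, by 2.20 ± 0.38. In PTFC against HFD24 4 of the 19 were lower and 0 higher (all genes 3.04% and 2.96%), led by Nfkb2 (-1.33 ± 0.19) and Irak3 (-1.67 ± 0.30). Of 9 inflammasome genes 3 were higher and 1 lower at 24 weeks (median -0.02). Casp1, the protease that matures IL-1 beta and IL-18, rose by 2.55 ± 0.47, Gsdmd, the pore protein that lets them out, rose by 1.31 ± 0.24, and Nlrp1a fell (-1.73 ± 0.23). Nlrp1a was the only one of the 9 called with the extract (1.03 ± 0.23). Of 16 acute phase genes 4 were higher at 24 weeks (median 0.36), against 9.97% of all genes higher and 21.4% of genes that were not dim called in either direction, a share near the latter. They included Lcn2 (5.94 ± 0.61), a neutrophil and hepatocyte siderophore binder, Steap4 (2.03 ± 0.23) and Hpx (0.60 ± 0.14). Lcn2 (-2.39 ± 0.61) and Steap4 (-1.29 ± 0.23) were lower with the extract.

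Markers of the cells that make or receive interleukins were called in the same comparisons, where 18.3% of all genes passed in HFD24 against ND and 6.0% in PTFC against HFD24. All 15 monocyte and macrophage genes were higher in HFD24 against ND (median 2.72), including Cx3cr1 (3.10 ± 0.44), Cd68 (2.96 ± 0.45) and Tyrobp (3.42 ± 0.53), and their mean level was 9.16 to 9.86 in ND, 10.15 to 12.27 in HFD16, 11.71 to 12.31 in HFD24 and 10.88 to 11.18 in PTFC. In PTFC against HFD24 3 of the 15 were lower, Itgax (-1.31 ± 0.33) and Cd14 (-1.43 ± 0.36) among them. Of 7 Kupffer cell genes 6 were higher (median 1.60), with means of 9.84 to 11.18 in ND, 11.12 to 12.39 in HFD16, 12.03 to 12.87 in HFD24 and 11.28 to 11.95 in PTFC, Folr2 (1.60 ± 0.25) having the smallest p, and 0 were called with the extract. Of 19 T and NK cell genes 7 were higher and 1 lower (median 0.96), with means of 7.46 to 7.65 in ND, 7.77 to 9.43 in HFD16, 8.46 to 8.79 in HFD24 and 7.74 to 7.97 in PTFC. Nkg7 (2.30 ± 0.45) and Cd5 (2.18 ± 0.44) rose, and Zap70 fell (-1.35 ± 0.28). Cd5 (-1.87 ± 0.44) and Thy1 (-1.37 ± 0.38) were the 2 lower with the extract.

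Of 10 neutrophil genes 5 were higher (median 0.62, means of 6.85 to 7.08 in ND, 7.12 to 7.48 in HFD16, 7.59 to 7.91 in HFD24 and 7.07 to 7.35 in PTFC), led by S100a9 (2.73 ± 0.45), which was also lower with the extract (-1.73 ± 0.45). On the same list S100a8 (-0.09 ± 0.24), Mpo (-0.52 ± 0.18) and Ngp (-0.19 ± 0.19) lay below 0 in HFD24 against ND and were not called. These were named after their values were seen. The 6 B cell genes split into 1 higher, Ms4a1 (0.87 ± 0.27), and 2 lower, Pax5 (-0.63 ± 0.18) and Cd79a (-0.80 ± 0.25), at means of 8.79 to 8.84 in ND, 8.80 to 9.33 in HFD16, 8.78 to 9.05 in HFD24 and 8.88 to 8.99 in PTFC. With the extract 1 was higher and 1 lower (Cd79a 1.04 ± 0.25, Ms4a1 -1.08 ± 0.27). Of 8 mast cell and basophil genes 0 were higher and 2 lower, Tpsab1 (-1.09 ± 0.26) and Tpsb2 (-0.86 ± 0.25), at means of 8.04 to 8.27 in ND, 7.92 to 7.98 in HFD16, 7.81 to 8.01 in HFD24 and 7.96 to 8.24 in PTFC. In PTFC against HFD24 Tpsab1 was higher (1.22 ± 0.26) and Ms4a2 lower (-1.07 ± 0.28). Of 8 endothelial genes 6 were higher (median 0.91, means of 10.29 to 11.06 in ND, 11.04 to 11.41 in HFD16, 11.45 to 11.86 in HFD24 and 11.47 to 11.59 in PTFC), including Lyve1 (3.03 ± 0.49), and 0 with the extract. Of 8 stellate cell genes 5 were higher and 1 lower (median 1.04, means of 9.12 to 9.30 in ND, 9.82 to 10.54 in HFD16, 10.16 to 10.39 in HFD24 and 9.45 to 10.02 in PTFC). Col3a1 was among the higher (3.31 ± 0.43) and Col1a1 was the lower gene (-0.91 ± 0.22). Acta2 was not called (0.10 ± 0.21). Col1a1 and Acta2 were named after their values were seen. With the extract 2 were lower, Pdgfrb (-1.50 ± 0.28) and Col3a1 (-2.14 ± 0.43). The 10 hepatocyte genes, which are the tissue check, had means of 17.55 to 17.64 in ND, 17.33 to 17.55 in HFD16, 17.38 to 17.60 in HFD24 and 17.59 to 17.76 in PTFC, and 1 was called at 24 weeks, Tat (-0.87 ± 0.22). Of the genes named from the cell type lists, Itgax, Cd5, Ms4a2, Col3a1 and S100a8 were dim, and sizes there are poorly measured. Dim genes made up 4 of the 19 T and NK cell genes and 4 of the 10 neutrophil genes. The part of these cell types in the interleukin and receptor differences was not tested.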

How the data were processed

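Liver RNA labelled with Cy5 was measured on 12 single-colour arrays, 3 in each of 4 groups taken from the sample titles. The deposited values are linear intensities of 26423 probes; no background correction or normalisation of them is given in the sources used here. The deposited intensities are whole multiples of 1 step per array (tolerance 0.02), and 291 values are below 0. Probes were named from the platform table (21876 with 1 symbol, 4547 with none). Values below 0 were set to 0, log2(intensity + 1) was quantile normalised over all probes, and the probe with the highest mean was kept for each of 19084 genes. limma 3.58.1 in R 4.3.3 fitted the 4 group means on all 12 arrays with a mean-variance trend, and p-values were Benjamini-Hochberg adjusted over all genes (threshold 0.05), after a check on simulated data.

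The members, the gene lists and the alternatives were chosen with earlier results of these data known. Every member that passed in at least 1 of 5 comparisons and a set of textbook members were given with all array values, the others by counts or name. Of each list, up to 3 genes with the smallest p in HFD24 against ND and up to 2 in PTFC against HFD24 were named. The lists cover T and NK cells, monocytes and macrophages, Kupffer cells, neutrophils, B cells, mast cells and basophils, hepatocytes, endothelial cells, stellate cells, partner chains, the JAK and STAT route with its inhibitors, the MyD88 route, the inflammasome and the acute phase. Same-numbered arrays did not deviate together more than differently numbered ones (median r -0.0505 and 0.0245), which does not exclude a pairing. Alternatives changed the pseudocount, normalisation, dim filter, probe choice, replicate block, scaling step and arrays.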

Additional observations from a re-analysis of the deposited data

How the results depend on the processing

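The counts of interleukin and receptor genes called higher and lower changed as follows. With the scaling step as a covariate they were 3 and 0 in HFD24 against ND, 0 and 0 in HFD16 against ND, and 0 higher in PTFC against ND. Without normalisation between arrays they were 7 and 3 in PTFC against HFD24 and 9 and 10 in HFD16 against ND. Of all genes the covariate fit called 2.0% in HFD24 against ND, 0.529% in HFD16 against ND and 0.131% in PTFC against ND. Leaving out the dimmest 25% of genes left 1 gene higher in PTFC against ND. With the replicate number as a block 3 genes were lower in PTFC against HFD24, against 10 without it, and 17 higher and 4 lower in HFD24 against ND. Over all genes 1.77% and 14.8% were called with the block in these comparisons. Deviations of 18 same-numbered pairs correlated at -0.288 to 0.169, and 4 pairs were over 0.1. For 36 differently numbered pairs the range was -0.193 to 0.261, and 10 were over 0.1. Same-numbered arrays thus did not deviate together more than others. Deviations from a mean of 3 arrays are not independent, so this does not exclude a pairing. Leaving out 1 array at a time gave 12 to 18 higher and 3 to 7 lower genes in HFD24 against ND, 0 to 5 and 0 to 15 in PTFC against HFD24, 4 to 15 and 1 to 11 in HFD16 against ND, and 0 to 3 higher in PTFC against ND. In these comparisons the share of all genes called ran from 9.11% to 25.9%, 0.0576% to 10.4%, 7.02% to 23.6% and 0.304% to 3.44%. Taking the brightest probe by mean intensity, an alternative chosen after seeing the data, gave 18 higher and 6 lower in HFD24 against ND.

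Across these alternatives signs turned only for genes that were not called. Taken probe by probe, the sign of Il34, which was called, turned as well. Its brightest probe gave -0.81 and its other, dim probe 0.67 in PTFC against HFD24. In HFD24 against ND the scaling step covariate gave 0.14 for Il10, -0.28 for Il1r1 and -0.093 for Il6st. Median centring gave 0.14 for Il4ra there and -0.12 in PTFC against HFD24, no normalisation gave -0.017 for Il6, and the mean of all probes gave -0.25 for Il6ra and, in PTFC against HFD24, 0.022 for Il17ra. Leaving out 1 array gave -0.174 to 0.141 for Il10, -0.037 to 0.179 for Il1r1 and -0.243 to 0.437 for Il6ra in HFD24 against ND, and -0.03 to 0.232 for Il10 in PTFC against HFD24. The cause was not tested.

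With 3 arrays per group and no detection calls, differences among the 27 dim genes are the least precise, and a gene that did not pass cannot be read as equal between groups.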
